A study of Mus musculus with 4 samples.

Results

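The genes described here are those of mouse chromosome 12 that were expressed in 4 leukaemia cell lines. A gene was a member when its listed locus was on chromosome 12 and its mean over the 4 lines was 1 or more FPKM, the deposited level scaled to transcript length and library size. Of 720 genes listed on chromosome 12, 381 were below that minimum and 29 were left out by name or family. The members were the remaining 310 of 10066 expressed genes and of 21889 genes listed. They spanned 116.3 Mb in the mm9 build, from base 3235791 to base 119539913. The chromosome was chosen by its FPKM ratios, since its genes were higher in the B117H line than in its parent B117P, so every value of that contrast is a description with no test. Lineage B140 did not enter that choice.

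RNA was sequenced from acute myeloid leukaemia lines of the BXH-2 mouse strain, with 1 library per line. B117P is a parental line that is sensitive to the nucleoside drug Ara-C (cytarabine), with a labelled IC50 of about 150 ng/ml, and B117H is a highly resistant line derived from it, with about 160 µg/ml. B140P, also sensitive at about 110 ng/ml, gave rise to the highly resistant B140H at about 60 µg/ml. The labels state exposure to increasing Ara-C and passage without the drug for all 4 lines, and give no clone numbers or animal ages. Because a line has 1 library, no value has a replicate error and no ratio within a lineage could be tested.

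Mouse chromosome 12 is an acrocentric autosome, with its centromere at the end where the coordinates begin. Its genes serve many unrelated functions, from DNA repair and splicing to lipid metabolism, and each is transcribed mainly under its own promoter and enhancers. Chromosome 12 also holds the immunoglobulin heavy chain locus, which is not analysed here, and the imprinted Dlk1-Dio3 domain, of which 7 genes were listed and none was a member.

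Promoters of 4 members are shown because they mark the range of the pattern: Sgpp1, Frmd6 and Id2 had the highest, the next highest and the lowest ratio of B117H to B117P, and Erh had the highest mean level. Each runs 5′ to 3′ from 250 bases before to 50 bases after the RefSeq transcript start in GRCm38.p6, where they lie at chr12:75735680-75735979 on the minus strand, chr12:70825264-70825563 on the plus strand, chr12:80644062-80644361 on the minus strand and chr12:25096043-25096342 on the minus strand for Sgpp1, Frmd6, Erh and Id2. Capitals mark matches on either strand to the TATA box core TATAAA, the CCAAT box, the GC box GGGCGG or the E-box CACGTG.
Sgpp1: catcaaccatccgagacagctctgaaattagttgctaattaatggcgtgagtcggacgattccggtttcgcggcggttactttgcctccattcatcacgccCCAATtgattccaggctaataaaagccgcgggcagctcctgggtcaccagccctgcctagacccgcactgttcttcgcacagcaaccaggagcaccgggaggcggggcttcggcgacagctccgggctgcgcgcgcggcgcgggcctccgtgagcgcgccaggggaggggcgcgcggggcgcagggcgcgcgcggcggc
Frmd6: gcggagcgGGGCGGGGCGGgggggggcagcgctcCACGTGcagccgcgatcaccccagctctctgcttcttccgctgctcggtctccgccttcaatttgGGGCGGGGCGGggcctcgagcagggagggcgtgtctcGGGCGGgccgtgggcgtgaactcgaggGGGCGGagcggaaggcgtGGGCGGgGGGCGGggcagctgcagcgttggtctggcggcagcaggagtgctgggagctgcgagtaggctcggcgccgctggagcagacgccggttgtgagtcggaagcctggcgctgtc
Erh: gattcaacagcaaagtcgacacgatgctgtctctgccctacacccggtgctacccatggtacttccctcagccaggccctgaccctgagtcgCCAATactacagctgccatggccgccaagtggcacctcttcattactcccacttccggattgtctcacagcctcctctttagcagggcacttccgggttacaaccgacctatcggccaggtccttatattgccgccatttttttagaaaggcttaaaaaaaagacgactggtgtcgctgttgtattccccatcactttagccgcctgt
Id2: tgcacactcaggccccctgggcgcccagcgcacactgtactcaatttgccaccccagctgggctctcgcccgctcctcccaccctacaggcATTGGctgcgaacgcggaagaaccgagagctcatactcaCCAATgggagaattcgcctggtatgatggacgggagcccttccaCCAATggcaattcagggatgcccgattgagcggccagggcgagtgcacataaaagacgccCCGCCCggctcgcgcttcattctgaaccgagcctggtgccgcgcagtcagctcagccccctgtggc

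Sgpp1 and Erh each had 1 match to CCAAT, Id2 had 3 matches to CCAAT and 1 to GGGCGG, and Frmd6 had 8 matches to GGGCGG and 1 to CACGTG. None of the 4 windows held TATAAA. Among 268 members found in the promoter table, taking the first listed start of each, GGGCGG was present in 67.5%, CCAAT in 36.2%, CACGTG in 10.1% and TATAAA in 4.85%. The shares among the 27025 genes of that table, which includes genes these cells do not express, were 35.9%, 37.9%, 7.24% and 14.2%. These matches describe letters and are not binding sites.

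The libraries were of like depth. The spacing of low values put them at about 19230000 (B140P) to 24510000 fragments (B140H), where a 2 kb transcript with 3 fragments has 0.0612 to 0.078 FPKM. Of 9 listed myeloid marker genes, 9 were at 1 FPKM or more in both B117 lines, 7 in B140P and 6 in B140H. Kit, the stem cell factor receptor, was listed at 0 in both B140 lines. The summed level of the 9, to which Mpo, Prtn3 and Ctsg gave the most in lineage B117, was 2919 FPKM in B117P and 1260 in B117H, and 488 and 429 FPKM in B140P and B140H. Of 13 markers of other cells, between 6 and 9 were listed at 0 and 2 were at 1 FPKM or more, Pecam1 and Hba-a1. Their summed level was 34.3 FPKM in B117P, 30.4 in B117H, 9.59 in B140P and 12.5 in B140H.

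In B117H, most of chromosome 12 was higher than in B117P, by amounts that varied from gene to gene. Ratios were taken as log2 of FPKM plus a pseudocount of 1, which understates differences of low genes. The median log2 ratio of the 310 members was 0.43, or 1.35-fold, with quartiles at 0.22 and 0.65. B117H was above B117P in 269 of 310 members, 86.8%, against 46.3% of all 10066 expressed genes. Counting members at least 25% higher on that scale gave 204, or 65.8%, where the share over all expressed genes was 13.8%. At least 20% lower, the same fold in the other direction, were 12 members, 3.87%, with 20.4% over all expressed genes. At least 1.5-fold higher were 104 members, where 4.66% of all expressed genes were, and 3 were as much lower, where 9.16% were. The 2-fold rule took in 15 members higher and 1 lower, beside 1.41% and 3.21% over all expressed genes. Differences past 2-fold upward were thus limited to 4.84% of members.

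The same genes in lineage B140 lay slightly the other way. B140H over B140P had a member median of -0.047, and 127 of 310 members, 41%, were higher in B140H, beside 63% of all expressed genes. At least 25% higher were 29 members, 9.35%, against 25.8% over all expressed genes, and at least 20% lower were 57, 18.4%, against 12.1%. At least 1.5-fold higher were 7 members and lower 11, beside 8.39% and 4.68% of all expressed genes. The median of expressed genes outside chromosome 12 was 0.12 in lineage B140 and -0.04 in lineage B117. Relative to those medians chromosome 12 was at -0.17 in lineage B140 and at 0.47, or 1.38-fold, in lineage B117. Centred in that way, the lineage B140 split became 14 members at least 25% higher and 86 at least 20% lower, and that of lineage B117 became 214 and 9. The 2-fold rule took in 3 members higher and 2 lower in B140H, beside 2.31% and 1.63% over all expressed genes.

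**Figure D1:**
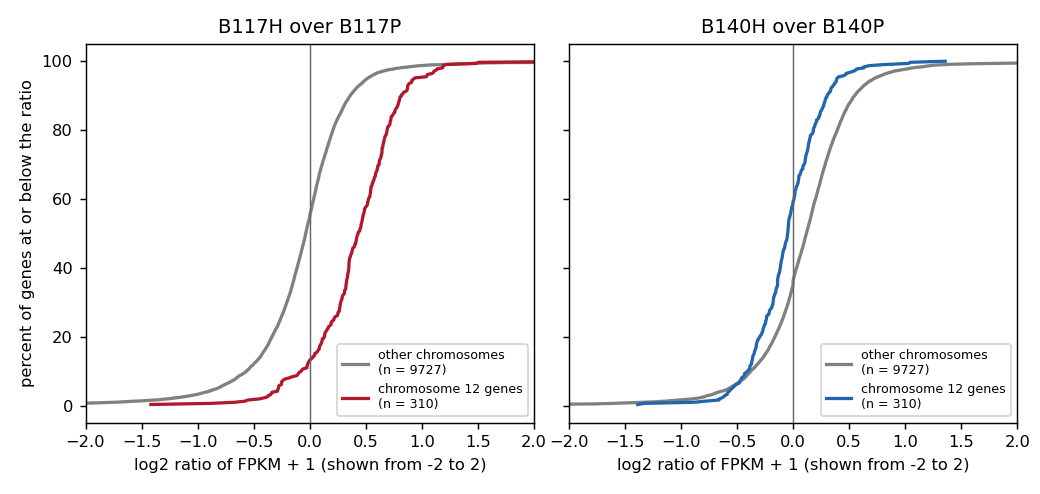
Cumulative percent of genes (vertical axis) at or below each log2 ratio of FPKM + 1 (horizontal axis, shown from -2 to 2) for the 310 chromosome 12 genes and the 9727 expressed genes of other chromosomes, in each lineage. In lineage B117 the chromosome 12 curve lies to the right over most of its length, with medians of 0.43 and -0.04, and in lineage B140 most of it lies slightly to the left, with medians of -0.047 and 0.12.

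Beside the other 19 chromosomes with expressed genes under the same name rule (18 autosomes and X), chromosome 12 had the highest median in lineage B117. The others ran from -0.51 on chromosome 13 to 0.07 on chromosome 1, and chromosome 16 was at -0.47. The share of genes higher in B117H was between 9.62% and 59.2% on those chromosomes. In lineage B140 chromosome 12 was 18th from the highest of 20, above chromosomes 9 and 14 at -0.19 and -0.24, and the highest was chromosome 5 at 0.25. The spread among chromosome 12 genes was not unusual: the interquartile range of their lineage B117 ratios was 0.43, and that of other chromosomes ran from 0.32 to 0.97 with a median of 0.38.

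**Figure D2:**
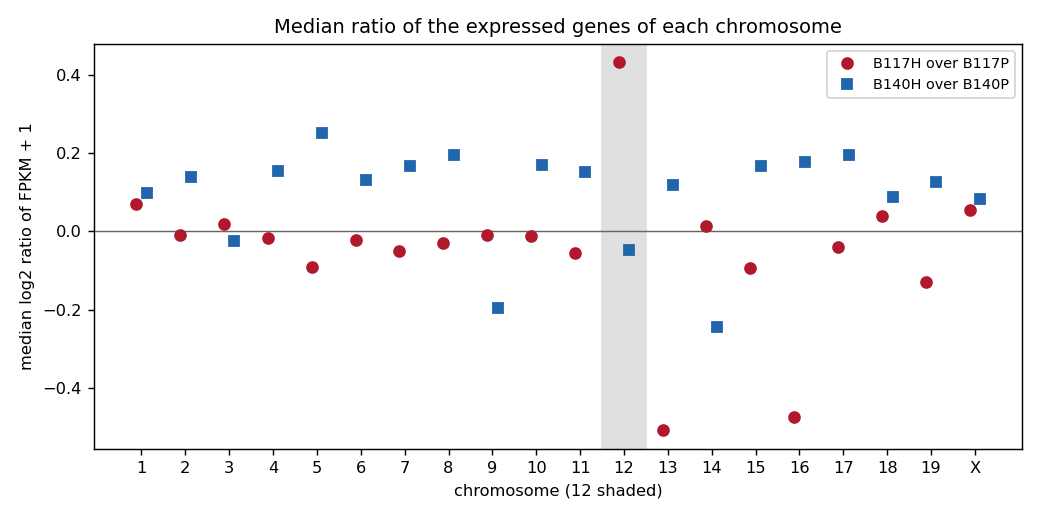
Median log2 ratio of FPKM + 1 (vertical axis) over the expressed genes of each chromosome (horizontal axis), with circles for B117H over B117P and squares for B140H over B140P. The lineage B117 circle of chromosome 12, at 0.43, stands above all other chromosomes, whose highest is 0.07, while its lineage B140 square is at -0.047.

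Set against the other lineage, the members were low in B117P and high in B117H. B117P was the lowest of the 4 lines for 175 of 310 members, 56.5%, and B117H the highest for 182, 58.7%. For 9081 expressed genes of other chromosomes under the same name rule those shares were 23.7% and 19.4%. The median log2 ratio of B117P to B140P was -0.22 over members and 0.01 outside chromosome 12. For B117H to B140H it was 0.28 over members and -0.16 outside. Neither median was the most extreme among chromosomes under the same name rule. Chromosomes 3, 9 and 14 had lower medians of B117P to B140P, at -0.23, -0.40 and -0.31. Chromosome 1 had a higher median of B117H to B140H, at 0.34, and chromosome 4 was at 0.27. These ratios share their libraries with the ratios within a lineage, and the lineages may have been scaled apart. The listed loci of 6 genes, none of them members, differed between the files, which does not show how the levels were scaled.

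The higher levels in B117H ran along the whole chromosome and were largest near the centromeric end. In bins of 10 Mb by listed start, the first, from 0 to 10 Mb, had a median log2 ratio of 0.72 over 20 members, and the next had 0.67 over 14. The bin from 20 to 30 Mb was lower, at 0.30 over 16 members, and those from 30 to 40 and 40 to 50 Mb were at 0.65 and 0.70, over 19 and 6 members. From 50 to 80 Mb the bins were at 0.43, 0.55 and 0.48, over 26, 13 and 45 members. The last 4 bins, from 80 to 120 Mb, were at 0.33, 0.52, 0.33 and 0.41, over 64, 5, 36 and 46 members. Every one of the 12 bins was above the highest median of another whole chromosome, and between 75% and 100% of the members of a bin were higher in B117H. In lineage B140 the bins ran from -0.18, from 0 to 10 Mb, to 0.08, from 20 to 30 Mb.

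Running medians of 25 neighbouring members, in windows that overlap each other, gave the same picture. All 286 such windows were above 0.2 in lineage B117, where 169 of 8620 windows of other chromosomes reached 0.2. The highest window, at 0.74, covered the first 25 members from 1700012B15Rik to Ddx1, and the lowest was at 0.23. The highest window of another chromosome, at 0.90, was on chromosome 3. In lineage B140 the windows of chromosome 12 lay between -0.21 and 0.13, and 87 of 286 were above 0.

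**Figure D3:**
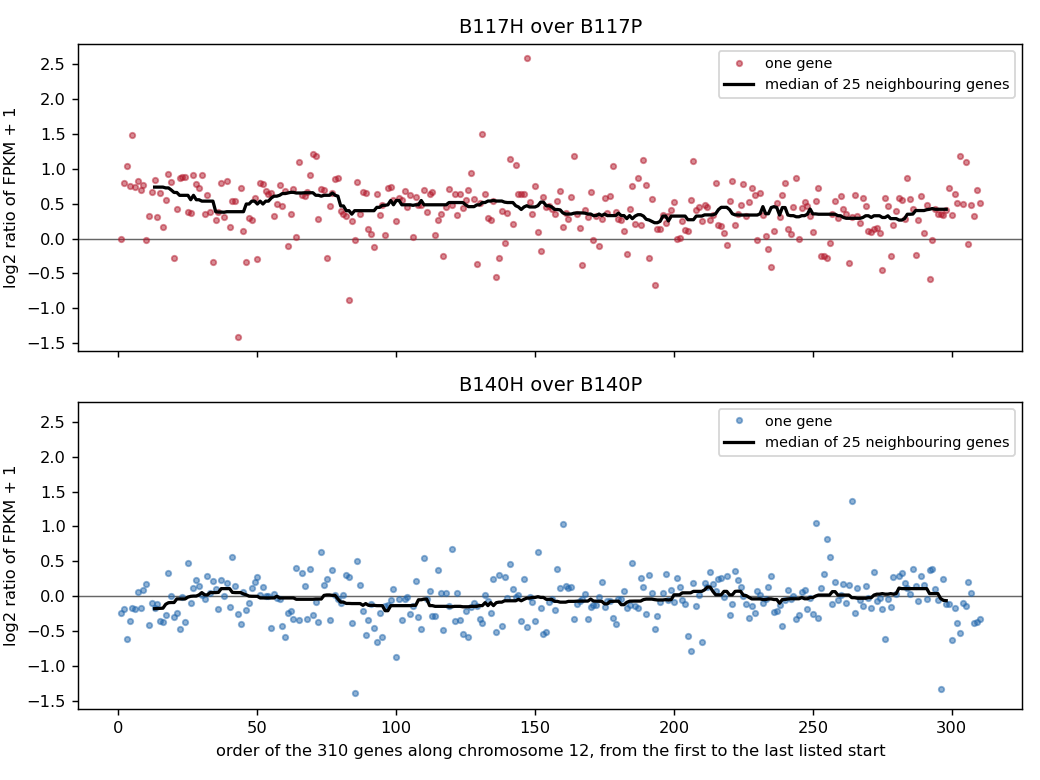
Log2 ratio of FPKM + 1 (vertical axis) for each of the 310 genes in their order along chromosome 12 (horizontal axis), with the running median of 25 neighbours as a line, for B117H over B117P above and B140H over B140P below. The upper line stays between 0.23 and 0.74 from end to end and is highest at the left, and the lower line stays between -0.21 and 0.13.

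Genes that lay nearest the median of each 20 Mb segment show what these differences are in FPKM. Itsn2, an endocytic scaffold in the first segment, was at 20.1 FPKM in B117P, 33.1 in B117H, 21.7 in B140P and 19.1 in B140H. Kidins220, a membrane scaffold between 20 and 40 Mb, was at 13.9, 20.6, 14.8 and 16.5 FPKM in the same order of lines. G2e3, a ubiquitin ligase between 40 and 60 Mb, was at 5.18, 7.55, 7.78 and 5.89 FPKM. B117P was the lowest line for Kidins220 and G2e3, and B117H was the highest for Itsn2 and Kidins220. Fam179b, between 60 and 80 Mb, was at 4.84, 7.16, 6.40 and 4.33 FPKM. Tmed8, between 80 and 100 Mb, was at 5.54, 7.27, 5.66 and 6.54 FPKM, and Atg2b, an autophagy gene in the last segment, at 6.41, 8.43, 8.76 and 8.03 FPKM. The last 2 members before the distal end, Cdca7l and Sp4, were still higher in B117H, with log2 ratios of 0.70 and 0.52. At the other end the first member, 1700012B15Rik, was listed at 0 in both B117 lines, and the next, Rab10, had 0.79. These end genes were not among those picked by rule. The listed span of Cdca7l overlaps Dnahc11 and that of Rab10 overlaps 1700012B15Rik.

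The members with the highest ratios in B117H had little in common by function. Sgpp1, a phosphatase that removes the phosphate of sphingosine 1-phosphate, was at 0.136 FPKM in B117P, 5.84 in B117H, 23.3 in B140P and 16.9 in B140H. B117P was far below the other 3 lines for this gene, and B117H was still below both B140 lines. Its log2 ratio was 2.59 with the pseudocount, and the fold of 42.9 without it had a 95% counting interval of 4.53 to 6.50 on the log2 scale. These intervals (exact, Clopper-Pearson) were made from estimated fragment numbers and hold counting error alone. Frmd6, a FERM-domain protein of the Hippo pathway, was at 7.995 and 24.6 FPKM across B117P and B117H and at 0.4001 and 0.0691 in B140P and B140H. Dtnb, the dystrophin-associated dystrobrevin beta, was at 6.07 and 18.8 FPKM in B117P and B117H, and at 13.1 and 11.5 in lineage B140. Scin, the actin-severing protein scinderin, was at 19.7 and 46.1 FPKM across B117P and B117H and at 0.295 and 0.219 in lineage B140. Frmd6 and Scin were therefore at low levels in lineage B140, while the Dtnb level of B117H lay above all 3 other lines.

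Mnat1, a subunit of the CDK-activating kinase and of the transcription factor TFIIH, was at 7.94 and 18.6 FPKM in B117P and B117H and at 10.5 and 14.8 in B140P and B140H. It was higher in both resistant lines, with log2 ratios of 1.14 and 0.45. Entpd5, a nucleoside diphosphatase of the endoplasmic reticulum, was at 7.73, 18.1, 8.89 and 9.81 FPKM in the order B117P, B117H, B140P and B140H. Esyt2, which tethers the endoplasmic reticulum to the plasma membrane, was at 9.57, 21.7, 10.6 and 9.58 FPKM. For both genes B117H stood above the other 3 lines, which lay close together. Twistnb, a subunit of RNA polymerase I, was at 10.5, 23.5, 21.2 and 16.6 FPKM, and 0610007P14Rik, now Erg28, a sterol synthesis scaffold, at 43.9, 95.8, 39.3 and 45.1 FPKM. The other members among the 12 highest, Arl4a, Rdh12 and Vipr2, were all below 5 FPKM in every line and had log2 ratios of 1.21, 1.19 and 1.18.

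A minority of members were lower in B117H, and no 2 of the 10 lowest were next to each other along the chromosome. Id2, an inhibitor of basic helix-loop-helix transcription factors that acts in blood cell differentiation, was the only member at least 2-fold lower. It was at 26.9 FPKM in B117P, 9.44 in B117H, 7.39 in B140P and 6.04 in B140H, so B117P alone was high. The log2 ratio was -1.42, and the fold of 0.351 had a counting interval of -1.68 to -1.34 on the log2 scale. Nubpl, an assembly factor of respiratory complex I, was at 8.18 and 3.97 FPKM across B117P and B117H and at 7.04 and 8.69 in lineage B140, which put B117H lowest. Abcd4, a transporter of vitamin B12 metabolism, had a log2 ratio of -0.67 for B117H and -0.47 for B140H, and so was lower in both resistant lines. Pld4, a lysosomal nuclease of the phospholipase D family, was at 77.0, 51.2, 58.2 and 75.5 FPKM in the order of lines above. Daam1, a formin, had a log2 ratio of -0.55, and Tnfaip2, a TNF-induced gene, was at 24.3 and 17.5 FPKM across B117P and B117H, at 0.132 in B140P and listed at 0 in B140H. Actn1, Nin, Ccdc85c and 9030617O03Rik completed the 10 lowest, with log2 ratios between -0.41 and -0.35. Of the 9 myeloid markers 6 were lower in B117H, Mpo the most (1450 and 473 FPKM in B117P and B117H), and 3 were higher, Ptprc (74.5 and 89.0), Kit (29.9 and 34.2) and Itgam (6.77 and 8.86). Their part in the lower values of Id2, Pld4 and Tnfaip2 was not tested. In bulk RNA, fewer cells of a type and less RNA per cell cannot be told apart.

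The 8 most abundant members were all higher in B117H, with log2 ratios from 0.18 to 0.67. Erh, a small protein of RNA processing, was at 313 FPKM in B117P, 498 in B117H, 434 in B140P and 390 in B140H. Srsf5, a splicing factor, was at 252, 316, 291 and 267 FPKM in the same order. In both genes B117P was the lowest line and B117H the highest. Pdia6, a disulphide isomerase of the endoplasmic reticulum whose span overlaps Atp6v1c2, was at 267, 342, 230 and 224 FPKM. For 2010107E04Rik, now Atp5mpl, a subunit of ATP synthase, the values were 282, 381, 318 and 417 FPKM, higher in both resistant lines. Ahsa1, an Hsp90 co-chaperone, and 1810035L17Rik, now Slirp, had smaller log2 ratios of 0.18 and 0.19 in lineage B117 and 0.26 and 0.36 in lineage B140. The span of 1810035L17Rik overlaps Snw1 and Alkbh1. Bzw2 and Fkbp3, the latter overlapping Prpf39, had log2 ratios of 0.66 and 0.38 in B117H and -0.33 and -0.04 in B140H.

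**Figure D4:**
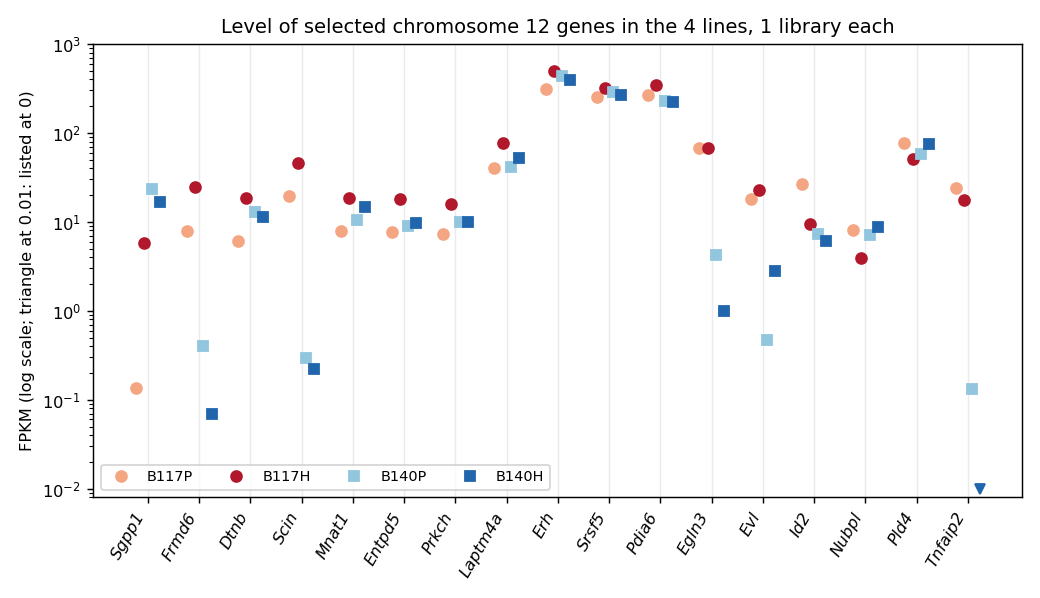
FPKM on a log scale (vertical axis) of selected chromosome 12 genes (horizontal axis) in the 4 lines, 1 library each, with circles for lineage B117 and squares for lineage B140 and a triangle for a value listed at 0. From Sgpp1 to Pdia6 the dark circle of B117H lies above the light circle of B117P, and for Id2, Nubpl, Pld4 and Tnfaip2 it lies below.

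By function, 192 of the members fell into 9 groups drawn up from textbook roles, some in more than 1, and the median of each group was above 0 in B117H over B117P. Transcription and chromatin genes had the highest group median, 0.62 over 30 members, with 24 (80.0%) at least 25% higher, 1 at least 20% lower (Id2) and 5 in between. Among all 310 members 65.8% were at least 25% higher, and between 60.6% and 80.0% were in 8 of the groups, so nothing particular to a function is read from these counts. The immune and blood cell genes were lower, at 33.3%, and no group was tested against the others. Snw1, a splicing and transcription coregulator whose span overlaps Slirp, was at 43.4 FPKM in B117P, 78.0 in B117H, 59.1 in B140P and 54.4 in B140H. Ncoa1, a coactivator of nuclear receptors, was at 2.31, 4.84, 4.92 and 5.14 FPKM, so B117P alone was low. The lineage B140 median of this group was -0.08, with 3 members higher and 6 lower by those limits, which also hold for the groups that follow. Over all members those limits took in 9.35% higher and 18.4% lower in B140H, beside 25.8% and 12.1% of all expressed genes.

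Of 13 genes of DNA repair and chromosome maintenance, 9 were higher in B117H and 1, the centrosomal gene Nin, was lower, with a median of 0.54. Gen1, a nuclease that resolves Holliday junctions, was at 5.69, 11.3, 10.2 and 7.06 FPKM in the order B117P, B117H, B140P and B140H. Tdp1, which removes blocking adducts from DNA ends, was at 17.3, 27.8, 22.9 and 23.0 FPKM. Fancm, a helicase of the Fanconi anaemia pathway, was at 3.01, 5.26, 3.85 and 4.10 FPKM. In lineage B140 these 3 genes had log2 ratios of -0.48, 0.01 and 0.07, and the group's median was 0.01.

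RNA processing and translation genes had a median of 0.52 over 25 members, with 19 higher and 0 lower. Cpsf2, a subunit of the mRNA cleavage complex, was at 14.3, 25.7, 23.7 and 22.9 FPKM in that order. Dicer1, the nuclease that makes microRNAs, was at 9.15, 15.7, 13.7 and 10.8 FPKM, and Sip1, now Gemin2, of the spliceosome assembly complex, at 11.3, 18.7, 12.9 and 12.5 FPKM. Zc3h14, a poly(A)-binding protein whose span overlaps Eml5, had log2 ratios of 0.72 and -0.14. In lineage B140 this group's median was -0.05, with 2 of 25 members higher and 4 lower, beside 9.35% and 18.4% of all members.

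Signalling genes had a median of 0.45 over 28 members, with 18 higher and 0 lower. Prkch, a protein kinase C isoform of blood cells, was at 7.24, 16.0, 9.97 and 9.90 FPKM in the order of lines above. Sipa1l1, a Rap GTPase-activating protein, was at 8.97, 19.5, 7.46 and 5.82 FPKM. Map4k5, which overlaps Atl1, and the inositol kinase Itpk1 had log2 ratios of 0.94 and 0.87. Some central members of the group differed little. Akt1, the survival kinase, was at 80.3 and 85.2 FPKM across B117P and B117H and at 104 and 116.8 in lineage B140. Nfkbia, the inhibitor of NF-kB, was at 23.4 and 24.2 FPKM in B117P and B117H, and Traf3, a signalling adaptor, at 11.5 and 12.2 FPKM. These 3 genes were chosen after their values were seen. In lineage B140 the group had a median of -0.05. Of its 28 members 8 were lower and 0 higher, beside 18.4% and 9.35% of all members.

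The cytoskeletal group had a median of 0.50 over 21 members with 13 higher and 3 lower (Daam1, Actn1 and Nin). Frmd6, Dtnb, Scin and the kinesin subunit Kif3c, whose span overlaps another listed gene, were its 4 members past 2-fold. Ubiquitin and proteolysis genes had a median of 0.46 over 17 members, with 13 higher and 0 lower. Rnf144a, a ubiquitin ligase, was at 10.6 and 18.2 FPKM across B117P and B117H and at 1.09 and 0.578 in lineage B140. Atxn3, the deubiquitinase of Machado-Joseph disease, was at 11.7, 18.4, 16.0 and 11.5 FPKM in the order B117P, B117H, B140P and B140H. Both groups had a lineage B140 median of -0.11.

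Metabolic and mitochondrial genes had a median of 0.41 over 33 members, with 20 higher and 2 lower, Nubpl and Abcd4. Lpin1, a phosphatidate phosphatase of lipid synthesis, was at 5.02 and 10.3 FPKM across B117P and B117H and at 0.0188 and 0.102 in lineage B140. Cmpk2, a mitochondrial kinase of cytidine and uridine monophosphates, was at 6.38, 6.94, 1.60 and 1.70 FPKM. It was chosen after its values were seen, and its log2 ratios were 0.11 and 0.05. The lineage B140 median of 0.11 was the highest of the 9 groups. Secretory and endosomal genes had a median of 0.35 over 30 members, with 20 higher and 0 lower. Laptm4a, a lysosomal membrane protein, was at 40.0, 76.9, 41.0 and 52.0 FPKM, higher in both resistant lines. Snx6, a retromer-associated sorting nexin, was at 31.8, 51.0, 31.4 and 27.0 FPKM, and the group's lineage B140 median was -0.10.

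Immune and blood cell genes had the lowest group median, 0.28 over 15 members, with 5 higher and 3 lower (Id2, Pld4 and Tnfaip2). Pik3cg, the leukocyte catalytic subunit of PI3-kinase gamma, was at 20.3, 33.1, 26.8 and 17.5 FPKM in the order of lines above, higher in B117H and lower in B140H than in the parent. Batf, an AP-1 family transcription factor of lymphocytes, was at 6.91 and 10.6 FPKM across B117P and B117H, at 0.720 in B140P and listed at 0 in B140H. A further 118 members were in none of the 9 groups.

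**Figure D5:**
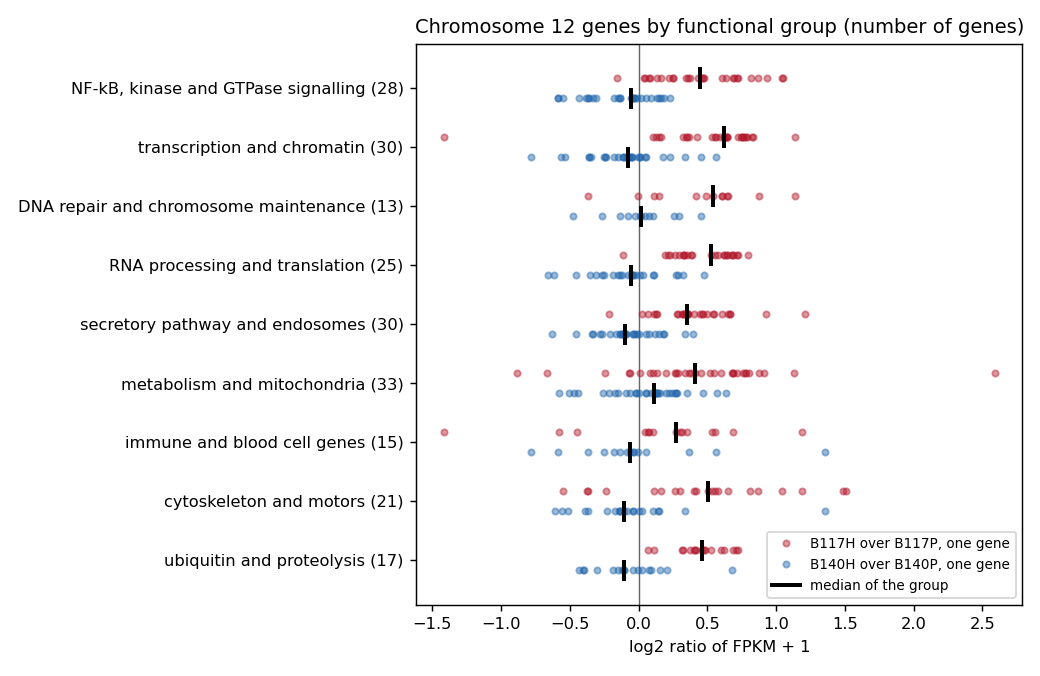
Log2 ratio of FPKM + 1 (horizontal axis) of each gene in 9 functional groups of chromosome 12 genes (vertical axis, number of genes in brackets), with B117H over B117P above, B140H over B140P below and group medians as bars. The lineage B117 medians lie between 0.28 and 0.62 and the lineage B140 medians between -0.11 and 0.11.

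Most members that were higher in B117H were in between in lineage B140. Of the 204 at least 25% higher in B117H, 144 (70.6%) were in between in B140H. A further 44 (21.6%) were at least 20% lower and 16 (7.84%) at least 25% higher. The shares of all 310 members, which include these 204, were 72.3%, 18.4% and 9.35%. Of members in between in B117H, 71 (75.5%) were in between in B140H, 11 (11.7%) lower and 12 (12.8%) higher. Of the 12 lower in B117H, 9 were in between in B140H, 2 lower and 1 higher. At least 1.5-fold in opposite directions in the lineages were 3 members (Kif3c, Pik3cg and Srp54c), 0.968%, where 1.78% of all expressed genes were. Pearson's r between both sets of log2 ratios was -0.11 across 310 genes, which share the same libraries and are not replicates. The largest lineage B140 differences were as follows. Egln3, a HIF prolyl hydroxylase, was at 68.2 and 67.0 FPKM in B117P and B117H, at 4.24 in B140P and at 1.01 in B140H. Jag2, a Notch ligand, was at 9.63 and 3.24 FPKM in B140P and B140H and at 2.64 and 3.63 in lineage B117. These were the 2 members at least 2-fold lower in B140H, and the next 3 genes those at least 2-fold higher. Evl, an actin regulator of the Ena/VASP family whose span overlaps Degs2, was at 0.473 and 2.77 FPKM in B140P and B140H, far below the 18.1 and 22.6 FPKM of lineage B117. Ifi27l2a, an interferon-induced gene, was at 1.38 and 3.92 FPKM, and Tmem229b at 21.5 and 45.0 FPKM, in B140P and B140H. Snhg10, Klhdc2 and Immp2l were next, with log2 ratios of 0.82, 0.68 and 0.63, and Mipol1, Batf, 6430527G18Rik and Srp54c were at -0.88, -0.78, -0.66 and -0.66. The spans of Snhg10, Immp2l, Mipol1 and Srp54c overlap other listed genes.

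Weakly expressed members had a slightly lower median and a wider spread than the others. The pseudocount of 1 draws ratios of weakly expressed genes toward 0, and its part in the lower median was not tested. In 3 groups of like size by mean FPKM, from the lowest to the highest, the lineage B117 medians were 0.36, 0.46 and 0.47, the interquartile ranges 0.54, 0.47 and 0.38, and 77.9%, 86.4% and 96.1% of members were higher. Expressed genes outside chromosome 12 in the same ranges had medians of -0.03, -0.03 and -0.05. By GC content of the longest transcript, known for 96.45% of members, the 3 groups from low to high had medians of 0.55, 0.45 and 0.34, and the genes outside had 0.09, -0.02 and -0.10. In each group the member median was above that of the genes outside, in the contrast by which the chromosome was chosen. Both sets had lower medians at higher GC content, and the part of GC content in these ratios was not tested. By transcript length the member medians were 0.35, 0.49 and 0.49, and those outside were -0.07, -0.03 and -0.01. The estimated fragments gave a counting interval for 297 members in lineage B117, which lay wholly above equal levels for 243 (81.8%, beside 30.7% of 9823 expressed genes), wholly below for 23 (7.74%, beside 37.7%) and across it for 31. In lineage B140 it lay above for 77 of 291 members (26.5%, beside 50.5% of 9601 expressed genes), below for 120 (41.2%, beside 23.3%) and across for 94.

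Around the minimum of 1 FPKM, the members just inside were Btbd6 (overlapping Brf1), Wdr25 and Nrcam, with means of 1.04, 1.13 and 1.14 FPKM and lineage B117 log2 ratios of 0.41, 0.33 and -0.29. Genes just outside included Zbtb42 and Stk30, with means of 0.999 and 0.787 FPKM and log2 ratios of -0.12 and -0.45. Of all members, 7 were listed at 0 in at least 1 library, among them Wdr35 in both B140 lines. An exact 0 can be a failed estimate.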

How the data were processed

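The authors deposited 1 file per line with FPKM values for 21889 genes and their loci. The submitters' processing notes name TopHat2 (2.0.4), Cuffdiff and the mm9 build, and their options are not given in the sources used here. FPKM were used as deposited, with listed starts counted from 0 and 1 added, as 6285 spans then matched a RefSeq table against 434 otherwise. Members and gene groups were chosen with earlier results of these data known.

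Log2 ratios used a pseudocount of 1 and a minimum mean of 1 FPKM, and genes were counted past 25% higher or 20% lower (1 ratio and its inverse), 1.5-fold and 2-fold. With 1 library per line no test was run, and the ratio steps were tested on simulated data. Depth was estimated from low values of 761 single-transcript genes of at least 3 kb (GENCODE M21). Of 65 to 89 low values per library, 71.1% to 81.5% came out whole within 0.15 of a fragment, but the step was set on those same values, so this is no independent check. Because reads could not be recovered for every gene, no count model was used.

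Named genes were the 12 highest and 10 lowest members in lineage B117, the 6 highest and 6 lowest in lineage B140, the 8 most abundant, up to 4 per group, those nearest each segment median and those around the minimum, of which 1 is not reported here. Of the members, 57 overlap another listed gene. Python 3.11.15, numpy 2.4.6, pandas 2.3.3 and scipy 1.17.1 were used. The 7 alternatives concerned the pseudocount, the minimum, centring, the names left out, overlaps and values listed at 0.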

Additional observations from a re-analysis of the deposited data

Results flagged for a closer look

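The member median differed in sign between the lineages, at 0.43 for B117H over B117P and -0.047 for B140H over B140P. The difference was not tested, as each line has 1 library. At least 1.5-fold in opposite directions were 3 members, 0.968%, a smaller share than the 1.78% of all expressed genes, and also untested. Kif3c had log2 ratios of 1.04 for B117H and -0.61 for B140H, at levels between 0.963 and 3.05 FPKM. Pik3cg was at 0.68 and -0.59. Srp54c, which overlaps its paralogs Srp54a and Srp54b, was at 0.64 and -0.66.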

How the results depend on the processing

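Over 7 alternatives to each of 10 results, 58 of 70 values stayed near the reported one, and no median changed sign. With a pseudocount of 0.1 the lineage B117 median was 0.49, and 23 members were at least 2-fold higher and 2 lower in B117H, and 8 at least 2-fold lower in B140H. Without a minimum level the lineage B117 median was 0.33 over 426 of the 720 genes listed on chromosome 12, and 80.0% of those 426 were higher. That setting held 409 genes in lineage B140. Centring on genes outside chromosome 12 put the lineage B140 median at -0.17, with 27.1% of members higher, 14 at least 25% higher and 1 at least 2-fold higher. With no names left out 3 genes were at least 2-fold lower in B117H, and with a minimum of 5 FPKM 1 member was at least 2-fold lower in B140H. The causes of these shifts were not tested. No paired analysis was possible because each comparison is within 1 lineage and is itself a single pair of libraries, so no pair is left to replicate it. The lines are paired by descent across both lineages, but a fit that pools the lineages was not run here. Depth limits genes under about 1 FPKM, and 1 library per line limits every ratio.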
